A study of Homo sapiens with 1 sample.

Results

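The miRNAs numbered miR-4417 to miR-4540 were examined in DLD-1, a human colorectal carcinoma line of epithelial origin, on the 1 array of cells given a negative control siRNA (si-NC). Members were chosen by name alone, as every human miRNA probe target in the range of names from miR-4417 to miR-4540 with any letter, copy or arm suffix, leaving out miR-4454. This gave 142 mature miRNAs under 123 numbers, of 2549 miRNAs on the array, measured by 298 probes and 2840 spots. The array was a single-colour Agilent design read with Cyanine 3, and cells with circLONP2 knockdown, the other side of the study's comparison, were not analysed here. With 1 array there is no replicate culture, so every error below is technical and no difference between samples was tested.

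A miRNA is cut from a hairpin transcript first by the Drosha and DGCR8 complex in the nucleus and then by Dicer in the cytoplasm, and one arm of the hairpin, 5p or 3p, is loaded into an Argonaute protein. Bases 2 to 8 of the mature strand form the seed, which does most of the pairing with target transcripts. Numbers are given to miRNAs in order of submission, and this block was annotated mostly from small RNA sequencing of B cells. Many miRNAs numbered this high have little known function.

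Mature sequences were taken from RefSeq (GRCh38.p14), which matched 126 of the 142 members by name, and the seed is in capitals in each line below. The first set holds the 6 members with the highest signals among those matched, shown because they lead the block in signal.
miR-4443: uUGGAGGCguggguuuu
miR-4455: aGGGUGUGuguguuuuu
miR-4516: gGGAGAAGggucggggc
miR-4507: cUGGGUUGggcugggcuggg
miR-4530: cCCAGCAGgacgggagcg
miR-4505: aGGCUGGGcugggacgga
These lie at chr3:48196572-48196588 (+), chr4:184938421-184938437 (-), chr16:2133120-2133136 (+), chr14:105858125-105858144 (-), chr19:39409629-39409646 (-) and chr14:73758749-73758766 (+), in the same order. The second set shows the 2 members that share a seed with let-7, a family known for holding cells in a differentiated state, beside let-7g-5p itself.
let-7g-5p: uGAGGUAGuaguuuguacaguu
miR-4500: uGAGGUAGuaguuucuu
miR-4458: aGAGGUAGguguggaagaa
miR-4500 lies at chr13:87618671-87618687 (-), miR-4458 at chr5:8460933-8460951 (+) and let-7g-5p at chr3:52268336-52268357 (-). The third set comes from the immunoglobulin heavy chain locus, the gene region that B cells rearrange to make antibodies.
miR-4538: gAGCUUGGaugagcugggcuga
miR-4539: gCUGAACUgggcugagcugggc
miR-4537: uGAGCCGAgcugagcuuagcug
They lie on the minus strand at chr14:105858221-105858242, chr14:105857513-105857534 and chr14:105859532-105859553. The last set holds the mature strands of members whose names the study lists as lower after knockdown of circLONP2. The entry miR-4446 names no arm, so both of its arms are shown.
miR-4521: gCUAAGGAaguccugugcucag
miR-4473: cUAGUGCUcuccguuacaagua
miR-4446-5p: aUUUCCCUgccauucccuuggc
miR-4446-3p: cAGGGCUGgcagugacaugggu
They lie at chr17:8186948-8186969 (+), chr9:20411161-20411182 (-), chr3:113594883-113594904 (+) and chr3:113594918-113594939 (+).

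Of the 142 members, 67 (47.2%) were flagged as detected by the scanner software, against 44.4% of all miRNAs on the array and 1066 of 2407 (44.3%) outside the block. The flag was set where the best probe of a miRNA exceeded its error by about 3 times. The lowest such ratio was 3.02 among detected members, and the highest was 2.36 among the 75 members not detected. For those 75 the file holds 0.1 with error 1 in place of a signal, so they have no measured level. By comparison, miR-4632 to miR-4804, another late block of numbers, had 87 of 280 detected (31.1%). Among miRNAs numbered under 500 the share was 62.2% of 511, and among the other miRNAs numbered in the 4000s it was 32.6% of 362. Inside the block, 22 of 48 members were detected from miR-4417 to miR-4457, 26 of 45 from miR-4458 to miR-4498 and 19 of 49 from miR-4499 to miR-4540. The share in the block was thus close to that of the whole array and above that of its neighbours in number.

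**Figure D1:**
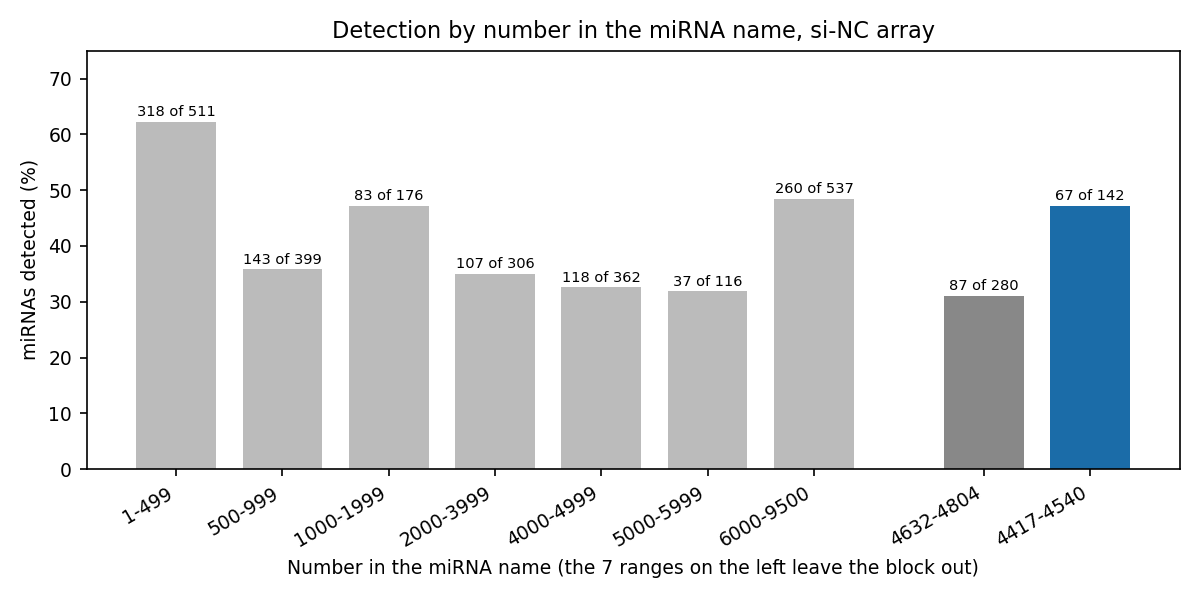
Percent of miRNAs with the detection flag on the si-NC array, by the number in the miRNA name; the 7 pale bars leave the block out, the dark grey bar is the block miR-4632 to miR-4804 (also counted in the 4000s), the blue bar is miR-4417 to miR-4540, and counts stand above each bar. The blue bar reaches 47.2%, below the 62.2% of numbers under 500 and above the 32.6% of the other numbers in the 4000s.

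Stricter rules left fewer members, and each kept only members that the flag had also called, by definition where a rule includes the flag. At least 1 probe with 50% or more of its spots well above background was found for 56 members (39.4%, array 37.9%). The median spot exceeded 16.1, the 99th percentile of 1000 negative control spots, for 51 members (35.9%, array 31.2%). A flag with a total gene signal of 5 or more was held by 54 members (38.03%, array 33.3%), and a flag with every probe supported by 50% of its spots by 48 (33.8%, array 29.4%). All 20 spots were well above background for 37 members (26.1%, array 25.2%). A deposited log2 value above the lowest value of the table gave the same 67 members (array 44.4%), but this table follows the flag and is no separate check. All 75 members not detected share its lowest value, and the 13 detected members under 5 are tied at a single value just above it. The order turned at high signal, where 7 members (4.93%) had a total gene signal of 100 or more against 8.47% of the array.

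Total gene signal was the software's summed background-subtracted intensity over those probes of a miRNA that passed 3 times their error. For 11 detected members only 1 probe did so. Total gene signals ran from 1.51 to 515 among the 67 detected members, with a median of 11.6 and quartiles of 6.17 and 32.4. The 1066 detected miRNAs outside the block had a median of 12.5, quartiles of 4.92 and 53.1, and a highest signal of 43459. Signals of different miRNAs come from different probes and were not read as relative abundance. Of the detected members, 13 lay under 5, 29 from 5 to 20, 18 from 20 to 100 and 7 at 100 or more. The software's error was 9.76% of the signal at the median and ranged from 6.02% to 33.2%.

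miR-4459 had the highest signal of the block, 515 ± 36.8 (error of the software), and its 20 spots lay between 1041 and 1779 with a median of 1422. miR-4443 followed at 228 ± 20.7, with spots from 113 to 1225. The next were miR-4455 at 133 ± 9.48 and miR-4516 at 115 ± 6.90, the latter read by 3 probes in place of the usual 2. By position alone, without regard to strand, miR-4516 lies inside PKD1, the polycystin 1 gene. For miR-4455 the 20 spots stayed between 291 and 431, so that its probes and spots lay close together, while those of miR-4443 fell into 2 separate ranges. miR-4507 (107 ± 7.68), miR-4530 (107 ± 7.599) and miR-4505 (104 ± 9.28) differed by less than their errors. Just below 100 came miR-4485-5p at 99.2 ± 7.07, miR-4442 at 95.2 ± 6.85 and miR-4430 at 90.2 ± 6.43. Placed in the same way, miR-4442 lies inside TOP2B, the gene of DNA topoisomerase II beta. After these 10 members came a gap larger than the errors on either side, down to 52.7 ± 3.81 for miR-4458. miR-4419a stood at 46.5 ± 3.39. All 12 had all 20 spots well above background.

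At the other end, the 4 lowest detected members were miR-4474-5p (1.51 ± 0.502), miR-4488 (1.52 ± 0.504), miR-4436b-5p (1.53 ± 0.502) and miR-4539 (1.64 ± 0.508). Each signal was barely over 3 times its error, and none of the differences between these 4 exceeded the errors. miR-4474-5p and miR-4436a (1.66 ± 0.507) carried the detection flag with 0 of 20 spots well above background. miR-4488, miR-4436b-5p and miR-4539 had 1 such spot each.

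**Figure D2:**
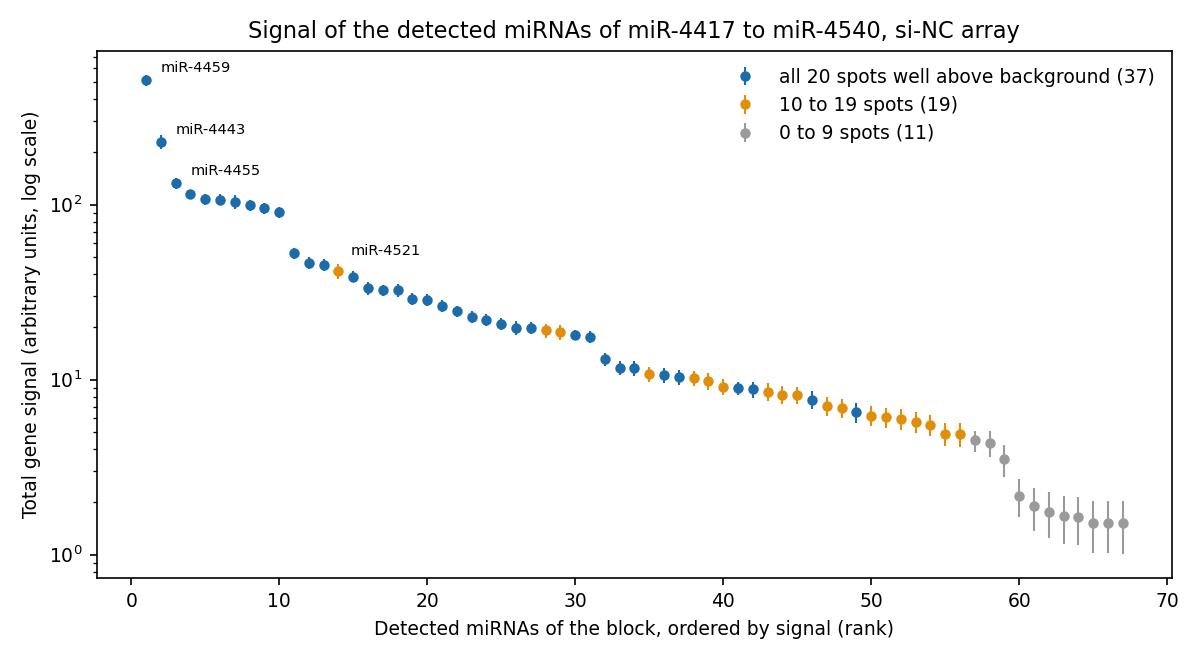
Total gene signal (arbitrary units, log scale) of the 67 detected members in order of signal, with the software's error as bars and colours for the number of the 20 spots well above background. The 10 brightest lie from 90.2 to 515 with all spots above background, and the 11 members with fewer than 10 such spots lie under 5.

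Spot support followed the signal. The flag, the signal and the call of each spot come from the same intensities, so this is no separate check of detection. Among detected members, 1043 of 1340 spots (77.8%) were well above background, against 17 of 1500 (1.13%) among members not detected. Of the 13 detected members under 5, 49 of 260 spots (18.8%) passed, while the 54 at 5 or more had 994 of 1080 (92.0%). Of the 75 members not detected, 59 had no spot above background, 15 had 1, and miR-4475 had 2, the most. Every probe was supported by 50% or more of its spots in 48 detected members, some but not all probes in 8, and no probe in 11. The 8 members with uneven support were miR-4433b-3p, miR-4446-3p, miR-4451, miR-4472, miR-4483, miR-4521, miR-4531 and miR-4535, named after their values were seen.

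Replicate spots of 1 probe varied little. Over the 107 of 298 member probes with enough spots above background, the coefficient of variation had a median of 9.11%, beside 8.74% for all 1943 such probes of the array. Probes of the same miRNA varied more. Over the 48 members with at least 2 supported probes, the median log2 difference between the brightest and the dimmest was 0.34 (quartiles 0.11 and 1.02). The median over 801 such miRNAs of the array, these members included, was 0.35. A difference of 1 or more was found for 13 members (27.1%) and for 157 of the 801 (19.6%).

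Members with fewer than 2 supported probes were not ranked here, though miR-4521 (227 and 7.13 per spot) and miR-4531 (38.6 and 2.85) had wider gaps. Among the 48 members with at least 2, the widest gap was that of miR-4443, whose probes averaged 1123 and 125 per spot. Its log2 difference was 3.17 ± 0.03 (standard error over replicate spots). miR-4505 followed with 500 and 65.7 (2.93 ± 0.05). The signals of both thus rested mainly on 1 probe. miR-4428 (2.22 ± 0.07), miR-4482-3p (2.05 ± 0.07) and miR-4487 (1.85 ± 0.08) came next. The probes of miR-4459 lay close together by contrast, at 1498 ± 188 and 1318 ± 157 (SD, 10 spots each), and those of miR-4530 at 293 ± 15.8 and 291 ± 16.8.

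**Figure D3:**
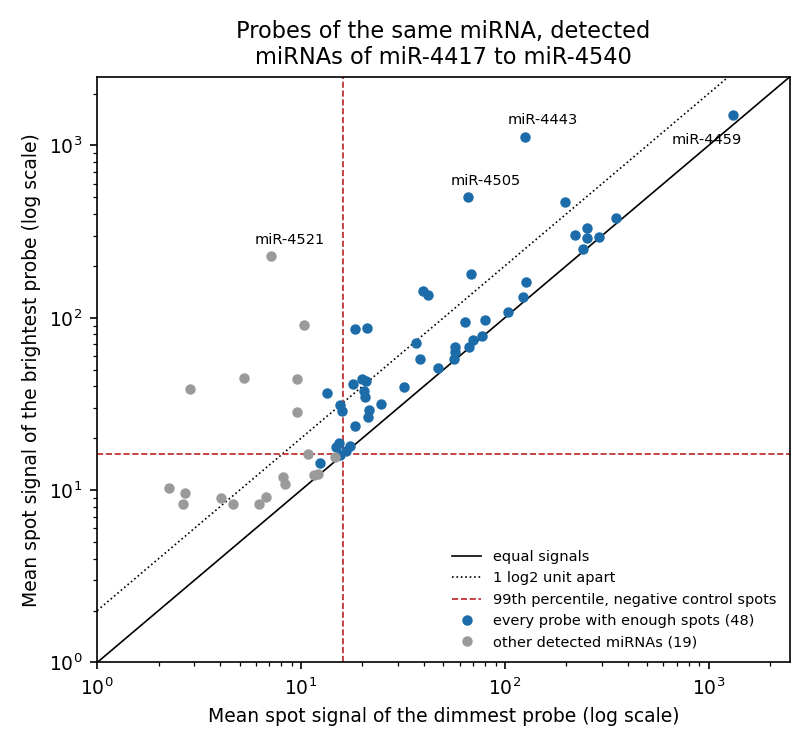
Mean background-subtracted spot signal of the brightest against the dimmest probe of each detected member, both on log scales, with lines for equal signals, for 1 log2 unit and for the 99th percentile of negative control spots (16.1). miR-4443 (1123 and 125) and miR-4505 (500 and 65.7) lie far above the line of equal signals, and miR-4521 has only 1 probe above the negative controls (227 and 7.13).

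Detection went with base composition inside the block. The planned measure was the share of G and C together, with medians of 59.5% in detected and 45.5% in not detected members. G alone was taken up after the data were seen. The 56 detected members with a sequence held a median of 44.9% G, against 28.6% in the 70 not detected. A and U were lower in the detected members (19.05% against 27.3% and 18.2% against 24.4%), and C was similar (17.6% against 18.2%). Over all other miRNAs the same medians of G were 28.6% and 26.1%, and in miR-4632 to miR-4804 they were 40.5% and 23.8%. Of members with over 40% G, 35 of 51 were detected (68.6%), against 258 of 414 miRNAs outside the block (62.3%). Of those with 30% G or less, 10 of 48 were detected (20.8%), against 490 of 1258 (39.0%). Members with over 40% G made up 40.5% of the block and 19.5% of the other miRNAs. These are descriptions over miRNAs of 1 array, which share probe design and base composition, and no test was made.

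**Figure D4:**
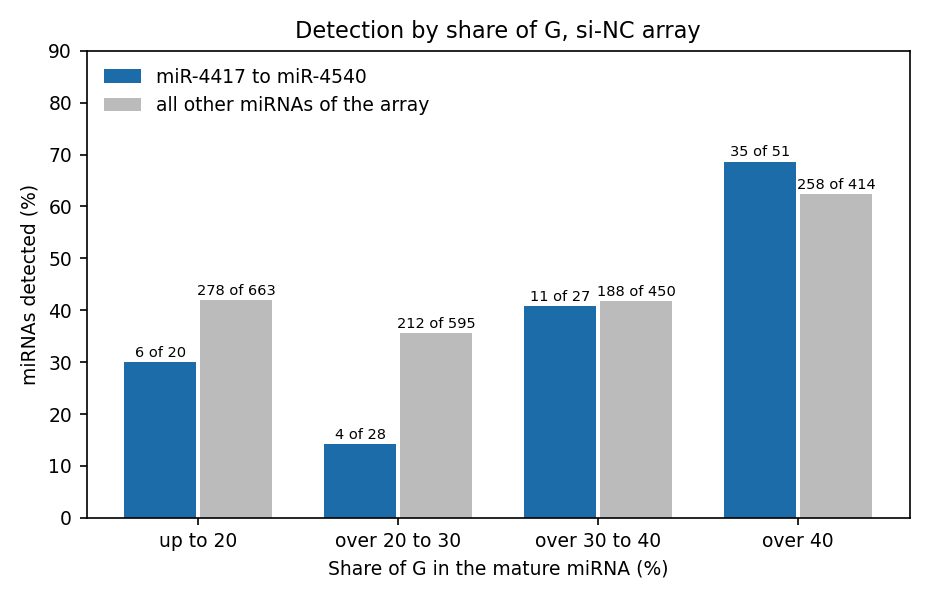
Percent of miRNAs detected on the si-NC array by the share of G in the mature sequence, for the block (blue) and all other miRNAs (grey), with counts above the bars. Above 40% G both groups stand over 60%, and up to 30% G the block has 10 of 48 detected.

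Short members were also detected more often. Of the 32 members of up to 18 bases, 23 were detected (71.9%), against 39 of 93 outside the block (41.9%). Such short miRNAs were 25.4% of the block and 4.38% of the others. Length and G went together in part. With over 40% G, 20 of 25 short members and 15 of 26 longer ones were detected, against 16 of 23 (69.6%) and 242 of 391 (61.9%) outside the block. With 40% G or less, it was 3 of 7 short and 18 of 68 longer members. Outside the block the order at 40% G or less was the opposite, with 23 of 70 short (32.9%) and 655 of 1638 longer miRNAs (39.99%) detected. Among the 56 detected members, signal itself followed composition only weakly, with Spearman's rho of 0.19 for G, 0.06 for G and C together and -0.30 for length.

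A run of letters recurred among the G-rich members. GGCUGGG, the seed of miR-4505, was searched for on the given strand of each mature sequence after the sequences of the bright members had been seen. It was found in 5 of 126 members (3.97%) and in 13 of 2122 other miRNAs (0.613%). The members were miR-4497, miR-4505, miR-4507, miR-4535 and miR-4492, of which the first 4 were detected, and 12 of the 13 others were detected as well. Of all miRNAs with over 40% G, 68.6% in the block and 62.3% outside it were detected. miR-4505 was in this count by the choice of letters. In miR-4507 the letters follow the seed. miR-4507 shares a run of 15 bases with miR-1587 (27.4 ± 2.78), which lies outside the block, and 13 members share 12 bases or more with another miRNA of the array. Of these 13, 10 were detected, against 56 of the 126 members with a sequence (44.4%) and 154 of the 318 miRNAs outside the block that share such a run (48.4%). How far such pairs share hybridised RNA was not tested.

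Few seeds were shared inside the block, with 121 different seeds over 126 members. The seed of 39 members also occurred on another miRNA of the array, and 10 of these formed 5 pairs inside the block. Only 1 pair had both members detected, miR-4458 (52.7 ± 3.81) and miR-4500 (10.2 ± 1.01), which share the let-7 seed. The 20 spots of miR-4458 lay between 116 and 174, and those of miR-4500 between 12.4 and 46.2, with 19 of 20 well above background. The 9 let-7 and miR-98 miRNAs outside the block with this seed were all detected, from 473 to 18935. miR-4500 shares a run of 14 bases with let-7g-5p (6187 ± 441) and let-7i-5p (2418 ± 171). The part of those neighbours in the signal of miR-4500 was not tested.

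Other pairs and families were detected in part. miR-4465 carries the seed of miR-26a-5p and miR-26b-5p and had a signal of 38.8 ± 2.83, while those 2 stood at 2919 ± 211 and 3194 ± 226. miR-1297, also outside the block, has this seed too and was not detected, with 0 of 20 spots above background. miR-4429 has the seed of miR-320b, miR-320c and miR-320d, which were detected from 114 to 237, and was itself not detected. miR-4516 was detected and its seed partner miR-4434 was not. The same held for miR-4538 against miR-4453 and for miR-4498 (6.11 ± 0.805) against miR-4492. miR-4524a-5p and miR-4524b-5p, the fifth pair, were both not detected.

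Both arms were measured under 13 hairpin names of the block. One of these, miR-4520, stands for 2 hairpin genes with a shared 5p strand and a 3p strand each, so there were 27 mature strands. Of these, 9 were detected (33.3%), against 57 of the 114 members named without an arm (50%) and 44.4% of all miRNAs on the array. The groups were not matched for length or share of G. Under 3 names both arms were detected, under 3 only 1 arm, and under 7, miR-4520 among them, neither. miR-4485 had the highest signals, 99.2 ± 7.07 for 5p and 32.4 ± 2.68 for 3p. Its gene lies in MTRNR2L8, a nuclear copy of the mitochondrial large ribosomal RNA gene. miR-4433a gave 32.4 ± 2.43 for 5p and 26.3 ± 1.98 for 3p. The third hairpin with both arms was miR-4446, at 10.3 ± 1.01 for 5p and 6.92 ± 0.870 for 3p. miR-4482 was detected only as 3p (19.8 ± 1.78, 20 of 20 spots), while its 5p arm had 0 of 20 spots above background. The single detected arms of miR-4436b and miR-4474 were those near 1.5 with 1 and 0 supporting spots.

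The origin of the block in B cells makes its members in B lineage genes of interest in an epithelial line. These genes were picked after the values were seen, and a miRNA was placed in a gene by position alone, without regard to strand. Of 126 members placed by RefSeq, 26 of 62 inside protein-coding genes were detected (41.9%), 15 of 29 inside other genes only (51.7%) and 15 of 35 outside any listed gene (42.9%). These lie near the share over all 126 placed members, 56 (44.4%). In the immunoglobulin heavy chain locus (IGH), miR-4507 stood at 107 ± 7.68 with 20 spots from 223 to 358. miR-4538 had 6.50 ± 0.819 with all 20 spots well above background, from 13.2 to 22.2. miR-4539 was flagged with 1 such spot and spots from 1.42 to 14.98, and miR-4537 was not detected, with spots from -3.42 to 12.2. The 4 neighbours of the locus thus ranged from a well supported signal to none. In PAX5, the gene of a transcription factor that maintains B cell identity, miR-4476 and miR-4540 were not detected, with 0 spots above background each. miR-4420, inside the blood cell gene LAPTM5, was not detected, and miR-4518, inside the leukocyte integrin gene ITGAL, stood at 17.9 ± 1.18.

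**Figure D5:**
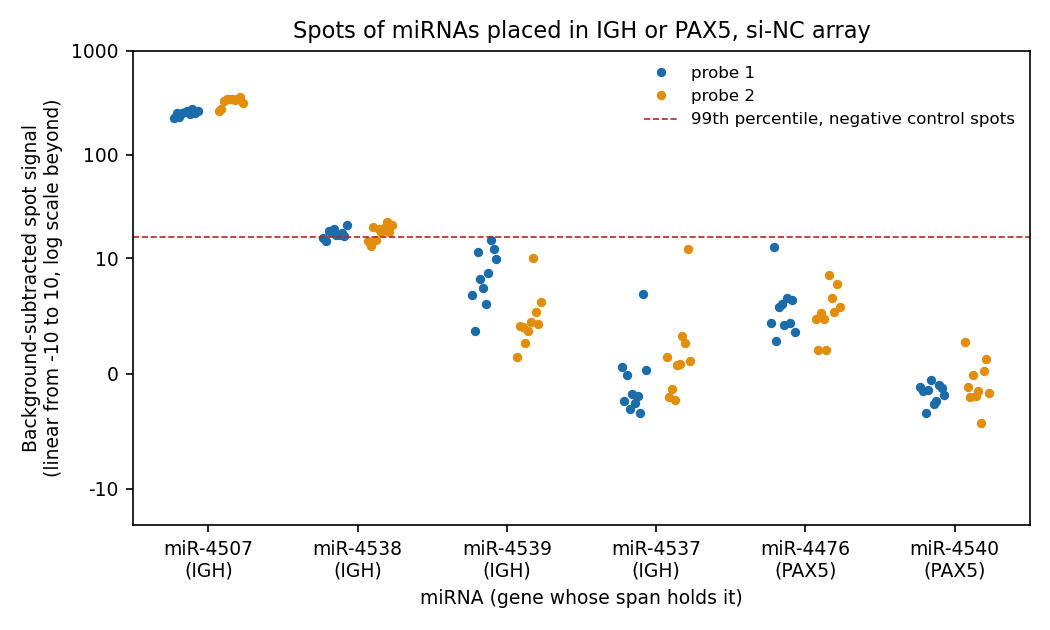
Background-subtracted signal of each of the 20 spots, split by probe, of the 6 members placed in IGH or PAX5 (linear from -10 to 10, log scale beyond), with the 99th percentile of negative control spots (16.1) as a dashed line. All spots of miR-4507 lie from 223 to 358, those of miR-4538 straddle the line, and those of the other 4 lie below it.

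Epithelial markers were present throughout. All 9 epithelial and intestinal miRNAs of a marker list, the miR-200 family, miR-192, miR-194, miR-215 and miR-203a, were detected, from 319 to 9249. Of 8 B cell and blood miRNAs, 5 were detected, beside 44.4% of all miRNAs on the array. The signals of these 5 were 695 ± 50.05 (miR-142-3p), 41.8 ± 3.04 (miR-142-5p), 25.4 ± 1.97 (miR-223-3p), 21.5 ± 1.67 (miR-451a) and 8.85 ± 0.943 (miR-155-5p). The B cell miRNA miR-150-5p and the red cell miRNAs miR-144-3p and miR-486-5p were not detected, with 0, 0 and 1 of 20 spots above background. Whether these blood miRNAs have a part in the signals of the block was not tested.

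The study's lists were used for their names alone. The list after knockdown comes from the study's comparison with control cells, so signal of its members in the control is no separate finding. Of 74 entries listed as lower after circLONP2 knockdown, 3 (4.05%) belong to the block, miR-4521, miR-4473 and miR-4446, and of 29 entries listed as higher after overexpression, 0 do. The block made up 5.57% of the miRNAs on the array. These shares differ in unit, as the entry miR-4446 names no arm and was matched to both, and no test was made. In the control array miR-4521 had 41.5 ± 4.19, the highest of these. Its 2 probes disagreed, with 227 ± 9.74 per spot (SD, 9 spots) on one and 7.13 ± 1.04 (8 spots) on the other, and only the 10 spots of the first were well above background. miR-4473, placed inside MLLT3, had 11.6 ± 1.11 with 20 of 20 spots supported. The 3p arm of miR-4446 also rested on 1 probe, with 10 of 20 spots supported, while its 5p arm had all 20. On the deposited log2 scale these members stood 3.13 (miR-4521), 1.32 (miR-4473), 1.13 (miR-4446-5p) and 0.47 (miR-4446-3p) above the lowest value of the table.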

How the data were processed

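miRNAs were measured in 1 DLD-1 si-NC sample. The deposited intensity of each spot came from Feature Extraction 11.0.1.1 per the file headers (array design on hg19), with background subtracted and no normalization between arrays. A second deposited file gives 2570 log2 values that the authors had quantile normalized in GeneSpring, whose floor and scale were read from the values. The labels give Cyanine 3-pCp with T4 RNA ligase as the labelling, the study's methods a cDNA kit.

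Detection was the software's flag and errors of total gene signals are the software's. Outlier spots (4.23% of member spots) were left out of spot means, and no member spot was saturated. A probe counted as supported with 50% of its spots well above background. The number of spots, 20 per member, limits the precision. Normexp (offset 50, on median spot signals) was run in limma 3.58.1 under R 4.3.3, and the rest in Python 3.11.15 with pandas 2.3.3, numpy 2.4.6, matplotlib 3.10.9 and scipy 1.17.1. The spot calculations were tested on simulated bright spots, all set as well above background and without outliers. Dim signals and the spot filters were not covered by this. Genes holding a miRNA came from RefSeq gene spans.

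Members and lists were chosen with earlier results of these data known. Named miRNAs were the 12 highest signals, the 4 lowest detected, hairpins with a detected arm (up to 6 members) and members on the study's lists. The 5 widest differences between supported probes, detected pairs with 1 seed and the flags least matched by spots (up to 3 each way) were also named. Other detection rules, background corrections and filters were alternatives.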

Additional observations from a re-analysis of the deposited data

How the results depend on the processing

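Counts of detected members and of detected arms stayed within 1.5 times under each planned detection rule. One of these, the deposited value, follows the flag and could not differ from it. Requiring every spot, a rule chosen after seeing the data, left 37 of the 67 members. The block stood 2.90 percentage points above the other miRNAs and stayed above under the planned rules, while at a signal of 100 or more (also added later) it stood at -3.75. The median signal of detected members was 64.1 as summed mean spot signals, by construction on another scale. It was 19.4 without signals under 5, a cut that raises the median by construction. The median CV of 9.11% became 11.5% with outlier spots kept, 18.7% with no filter on dim probes and 4.49% after normexp. The median probe difference of 0.34 became 0.44 with no filter on dim probes and 0.15 after normexp. Normexp here added an offset of 50 to each spot, which by construction lowers both values. The lower values after normexp therefore do not show closer spots or probes. The difference in median G and C share of 14.1 points was 10.7 with 50% of the spots of 1 probe, 9.55 at a signal of 5 or more, and, chosen after seeing the data, 16.4 for G alone and 13.6 among members of over 18 bases. Other causes of these shifts were not tested. Of the 12 highest signals, 10 stayed within their error in the deposited values, and miR-4458 (58.3) and miR-4419a (50.2) did not. No paired analysis was possible because the series has 1 sample here. Dim signals near 3 times their error limit what can be said of the 13 members under 5.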
